A study of Homo sapiens with 24 samples.

Results

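The SOX genes of the SOXB1 group (SOX1, SOX2, SOX3), the SOXB2 group (SOX14, SOX21) and the SOXC group (SOX4, SOX11, SOX12) were followed through RNA-seq counts of human embryonic stem cells (hESCs) and of neuroectoderm made from them. These 8 genes were taken by symbol from 61551 genes in the counts. All cells came from the H9 hESC line. The unedited cells, called hHAR123, carry the human form of HAR123, a noncoding human accelerated region in an intron of SMG6. HAR123-KO cells lack it on both alleles, and in cHAR123 and mHAR123 cells the chimpanzee or mouse version stands in its place. Each of the 4 genotypes was sequenced as undifferentiated hESCs and after 5 days of neuroectoderm induction in medium with 10 µM SB431542 and 500 ng/ml Noggin, with 3 libraries per genotype and stage and 24 in all. The study worked with a pair of independent clones per genotype. Which clone gave which library is not stated, and the p-values measure the spread between these libraries only. HAR123 is not part of an exon, so the counts hold no direct check of its deletion or replacement. In the study's own list of neuroectoderm mean counts, the cHAR123 and mHAR123 entries are exchanged relative to the column labels of the counts. Which of these genotypes a neuroectoderm column holds cannot be told apart from the sources, and all neuroectoderm values of cHAR123 and mHAR123 here follow the column labels. If those labels are exchanged, each stage comparison given for cHAR123 or mHAR123 sets the hESCs of one genotype against the neuroectoderm of the other.

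SOX proteins bind DNA through a shared HMG box. SOX2 and its SOXB1 relatives SOX1 and SOX3 act mainly as activators: SOX2 keeps hESCs pluripotent together with OCT4, and the SOXB1 group keeps neural progenitors dividing and undifferentiated. SOX21 and SOX14 of the SOXB2 group act mainly as repressors of SOXB1 target genes. The SOXC genes SOX4, SOX11 and SOX12 are known for switching on neuronal genes once progenitors begin to differentiate.

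All 8 are single-exon genes in GRCh38. SOX1 (chr13:112067149-112071706, plus strand) and SOX21 (chr13:94709622-94712545, minus strand) lie on the same chromosome, as do SOX2 (chr3:181711925-181714436, plus strand) and SOX14 (chr3:137764315-137766334, plus strand). SOX3 is at chrX:140502985-140505069 (minus strand), SOX4 at chr6:21593751-21598619, SOX11 at chr2:5692384-5701385 and SOX12 at chr20:325552-330224, the last 3 on the plus strand. The long noncoding RNA genes SOX1-OT and SOX2-OT run across SOX1 and SOX2 on the same strand and SOX21-AS1 overlaps the SOX21 locus on the opposite strand, but none of them shares an exonic base with its SOX gene. Of the exonic bases of SOX4, 3.45% are shared with a gene on the opposite strand, and of those of SOX11, 0.822% with a gene on the same strand.

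RefSeq promoter sequence (GRCh38.p14) was found for 6 of the 8 genes, and the 250 bases before the start of each adjoin the start used in the counts. The sequences of SOX1, SOX2 and SOX21, the 3 genes with the largest difference between HAR123-KO and hHAR123 neuroectoderm, and of SOX12, which differed in the opposite direction, are shown 5′ to 3′ on the strand of the gene. Capitals mark matches to the CCAAT box (CCAAT or its reverse complement ATTGG) and to the GC box (GGGCGG or CCGCCC).
SOX1 (chr13:112066899-112067148, plus strand): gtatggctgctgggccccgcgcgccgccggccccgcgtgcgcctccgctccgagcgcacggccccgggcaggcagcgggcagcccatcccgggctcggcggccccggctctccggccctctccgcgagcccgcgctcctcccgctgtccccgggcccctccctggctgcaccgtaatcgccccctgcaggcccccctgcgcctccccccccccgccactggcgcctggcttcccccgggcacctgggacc
SOX2 (chr3:181711675-181711924, plus strand): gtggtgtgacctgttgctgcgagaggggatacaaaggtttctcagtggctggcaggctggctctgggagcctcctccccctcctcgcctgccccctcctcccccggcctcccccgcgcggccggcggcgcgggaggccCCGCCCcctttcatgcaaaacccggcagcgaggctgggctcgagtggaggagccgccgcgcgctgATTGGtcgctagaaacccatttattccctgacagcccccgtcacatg
SOX21 (chr13:94712546-94712795, minus strand): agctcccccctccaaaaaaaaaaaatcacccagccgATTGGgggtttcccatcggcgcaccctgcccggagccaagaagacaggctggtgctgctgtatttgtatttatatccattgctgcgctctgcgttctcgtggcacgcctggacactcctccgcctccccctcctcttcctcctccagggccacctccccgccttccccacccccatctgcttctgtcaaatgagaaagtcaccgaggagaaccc
SOX12 (chr20:325302-325551, plus strand): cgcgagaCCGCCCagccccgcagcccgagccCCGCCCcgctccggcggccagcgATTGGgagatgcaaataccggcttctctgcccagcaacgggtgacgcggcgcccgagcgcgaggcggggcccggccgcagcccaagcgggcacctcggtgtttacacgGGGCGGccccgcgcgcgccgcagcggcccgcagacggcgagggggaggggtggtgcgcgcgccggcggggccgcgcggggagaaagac

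These windows differ in composition. G and C make up 82.0% of the SOX1 window and 79.2% of the SOX12 window, 68.8% of the SOX2 window and 58.8% of the SOX21 window, beside a median of 58.0% over 35116 RefSeq windows of the same length. The SOX12 window holds 42 CpG dinucleotides and 3 GC boxes, whereas the SOX1 window holds 31 CpG dinucleotides and neither motif. SOX2 has a CCAAT box that begins 47 bases before the start, and SOX21 has one that begins 214 bases before it. SOX4 and SOX3 were searched too, and the SOX4 window holds 4 CCAAT boxes and has the lowest G and C content of the 6, 48.8%. A CCAAT box stands in 32.0% and a GC box in 42.6% of all windows. The letters ACAAT or ATTGT, part of the sequence that SOX proteins bind, stand in 24.6% of all windows and in none of these 6. SOX14 and SOX11 had no entry.

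Library totals ranged from 21022748 to 35198684 counts, and mitochondrial genes took 4.02% to 4.48% of the counts in hESCs and 2.16% to 2.63% in neuroectoderm. The stage labels were checked on markers: 9 pluripotency genes summed to 7406 to 8026 CPM (counts per 1000000 counts of the library) in hESCs and to 1747 to 1976 CPM in neuroectoderm, where LIN28A alone was at 1327 to 1614 CPM, and 9 neuroectoderm genes summed to 508 to 645 CPM in hESCs and to 1465 to 2970 CPM in neuroectoderm. The endoderm marker SOX17 was at 0 in every neuroectoderm library. It was also at 0 in all hHAR123, HAR123-KO and mHAR123 hESC libraries, so it does not separate the stages. In bulk RNA, fewer cells of a type and less RNA per cell cannot be told apart.

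The levels of the 8 genes were first put in order, per length, as CPM per kilobase of exon (RPKM). In hHAR123 hESCs the order was SOX4 at 96.0 ± 0.362 RPKM (SD, n = 3), SOX2 at 82.1 ± 1.16, SOX12 at 39.3 ± 1.44, SOX11 at 20.7 ± 0.280 and SOX3 at 11.3 ± 0.227, with SOX21 at 0.557 ± 0.0293, SOX1 at 0.0720 ± 0.0141 and SOX14 at 0.0342 ± 0.0161. No neighbours in that order overlapped between libraries. In hHAR123 neuroectoderm SOX2 stood highest at 216 ± 4.84 RPKM, followed by SOX11 at 114 ± 3.93, SOX4 at 97.7 ± 1.96, SOX21 at 78.8 ± 3.93, SOX12 at 32.1 ± 0.510, SOX1 at 17.8 ± 0.350 and SOX3 at 15.1 ± 1.14, again with no overlap between neighbours. SOX14 was the lowest, with 0, 2 and 0 reads in the 3 libraries.

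The most abundant SOX gene thus differed between the stages, and each gene was tested in hHAR123 cells as neuroectoderm against hESCs. SOX1, the early marker of the neural plate, went from 0.316, 0.271 and 0.398 CPM in the hESC libraries to 82.4, 82.1 and 79.5 CPM in neuroectoderm. SOX21 went from 1.70, 1.54 and 1.65 CPM to 244, 223 and 225 CPM. SOX11 went from 184, 189 and 186 CPM to 1066, 996 and 1019 CPM. Every neuroectoderm library lay above every hESC library for these 3 genes. The fitted log2 fold changes were 7.64 ± 0.10 (SE) for SOX1, 6.85 ± 0.07 for SOX21 and 2.17 ± 0.03 for SOX11 (adjusted p = 2.5e-40, 3.86e-45 and 5.86e-40, edgeR). SOX2, already abundant in hESCs at 205, 209 and 204 CPM, stood at 549, 549 and 528 CPM in neuroectoderm, a log2 fold change of 1.10 ± 0.03 (adjusted p = 9.94e-30, edgeR).

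A gene was called when its adjusted p was under 0.01 and its log2 fold change was over 1 in size. SOX1, SOX2, SOX21 and SOX11, 4 of the 7 members that passed the filter on low counts, were called higher, and none was called lower. Over all 22280 genes tested, 24.6% were called higher and 21.2% lower, so calls were common in this comparison, and the median log2 fold change was 1.10 over the members and 0.05 over all genes. SOX12 (-0.58 ± 0.04) and SOX4 (-0.27 ± 0.03) passed the adjusted p alone, as 39.7% of all genes did in the lower direction, and SOX3 (0.13 ± 0.06, adjusted p = 0.0401, edgeR) did not. The sign for SOX4 rests on the scaling. Its CPM were 466 to 469 in hESCs and 470 to 487 in neuroectoderm, and the fit also applies TMM factors. In a fit of all 24 libraries together, these factors were 0.891 to 0.944 in hESCs and 1.06 to 1.11 in neuroectoderm. Those of the hHAR123 stage fit alone are not reported here. The fitted stage changes of the members lie below those in CPM. SOX14 did not pass the filter in any comparison of the report.

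**Figure D1:**
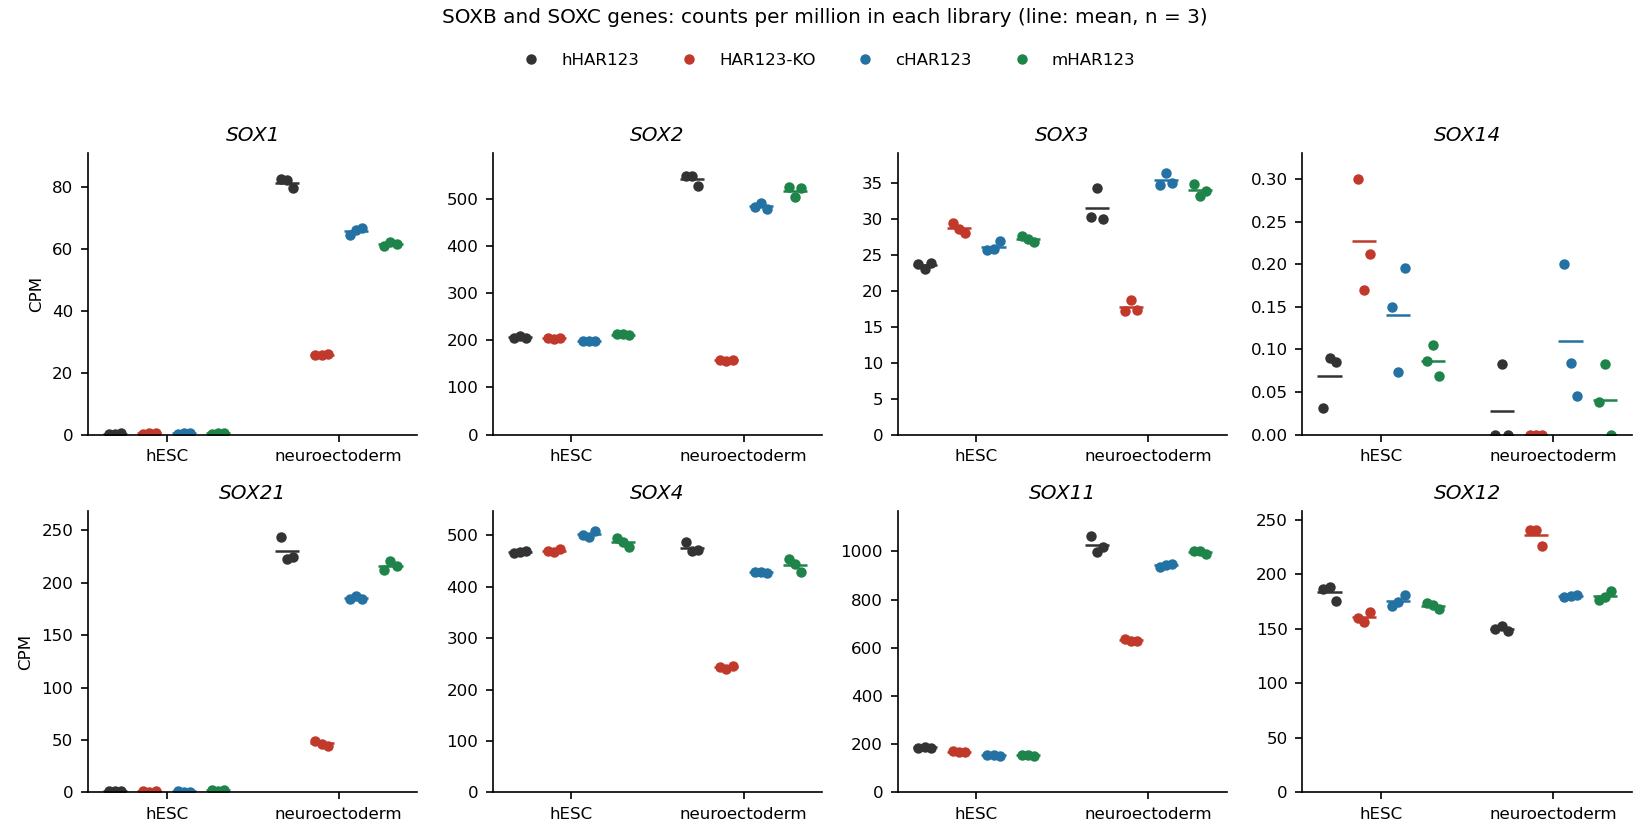
CPM (vertical axis, from 0, with a scale of its own in each panel) of the 8 SOX genes in each of the 24 libraries, as points by stage and genotype with a line at the mean of 3. SOX1, SOX2, SOX3, SOX21, SOX4 and SOX11 are lowest in the HAR123-KO neuroectoderm libraries among the 4 neuroectoderm groups, SOX12 is highest there at 226 to 241 CPM, and SOX14 stays at or below 0.300 CPM.

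The effect of losing HAR123 was examined next, as HAR123-KO against hHAR123 libraries of the same stage. In neuroectoderm the 4 tested SOXB genes, SOX1, SOX2, SOX3 and SOX21, were lower. SOX2 was at 549, 549 and 528 CPM in the hHAR123 libraries and at 159, 157 and 158 CPM in the HAR123-KO libraries. SOX1 was at 82.4, 82.1 and 79.5 CPM against 25.6, 25.8 and 26.1 CPM. SOX21 was at 244, 223 and 225 CPM against 49.3, 46.5 and 44.7 CPM. The groups were far apart for each of these genes, with replicates within a few CPM of one another in HAR123-KO. SOX2 was 3.31-fold lower (log2 fold change -1.73 ± 0.03, adjusted p = 4.78e-43, edgeR), SOX1 was 3.04-fold lower (-1.60 ± 0.05, adjusted p = 5.43e-33, edgeR), and SOX21 was 4.74-fold lower (-2.25 ± 0.04, adjusted p = 7.07e-43, edgeR). SOX3, the remaining SOXB1 gene, was at 30.3, 34.2 and 29.9 CPM in hHAR123 and 17.2, 18.7 and 17.2 CPM in HAR123-KO. It was 1.72-fold lower, past the adjusted p but within the fold threshold (-0.78 ± 0.07, adjusted p = 1.09e-14, edgeR). The second hHAR123 library was the highest for SOX3, and the groups did not overlap.

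The SOXC genes did not move as a block. SOX4 was at 487, 470 and 470 CPM in hHAR123 neuroectoderm and at 244, 240 and 246 CPM in HAR123-KO, 1.88-fold lower (-0.91 ± 0.03, adjusted p = 1.53e-31, edgeR). SOX11, the most counted member, was at 1066, 996 and 1019 CPM against 638, 626 and 629 CPM, 1.57-fold lower (-0.65 ± 0.03, adjusted p = 5.79e-27, edgeR). SOX12 went the other way, from 150, 152 and 147 CPM to 240, 241 and 226 CPM, 1.63-fold higher (0.70 ± 0.03, adjusted p = 2.59e-24, edgeR). All 3 groups of values were clear of their counterparts, and all 3 differences were within the fold threshold. In all, 3 of 7 members tested were called lower and none higher, where 4.52% of 21362 genes were called lower and 4.92% higher. By the adjusted p alone, 6 members were lower and 1 higher, where 19.9% of genes were lower and 24.2% higher. The median log2 fold change was -0.91 over the members and 0.00 over all genes.

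SOX14 gave 0 reads in each of the 3 HAR123-KO neuroectoderm libraries, which allows up to 0.123 to 0.129 CPM per library at 3 counts, and 0, 2 and 0 reads in hHAR123. A difference was not detectable at this depth. The same gene gave 7, 5 and 7 reads in HAR123-KO hESCs and 1, 3 and 3 reads in hHAR123 hESCs, levels of 0.300 CPM or less.

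The make-up of the SOX set differed accordingly. The 3 SOXB1 genes summed to 249 ± 5.90 RPKM in hHAR123 neuroectoderm and to 77.1 ± 0.0851 RPKM in HAR123-KO neuroectoderm, which is below the 95.03 ± 0.520 RPKM of HAR123-KO hESCs. Their share of the summed level of all 8 genes was 43.5% ± 0.819 in hHAR123 and 29.2% ± 0.260 in HAR123-KO. The share of the SOXC genes was 42.7% ± 0.494 in hHAR123 and 64.7% ± 0.0218 in HAR123-KO, and that of the SOXB2 genes 13.8% ± 0.426 and 6.07% ± 0.243. The summed level of the SOXC genes was itself lower in HAR123-KO, at 171 ± 1.75 RPKM beside 244 ± 5.77 RPKM in hHAR123. Within SOXB1, SOX2 held 86.8% ± 0.321 of the sum in hHAR123 and 81.6% ± 0.542 in HAR123-KO, while the share of SOX3 was 6.07% ± 0.372 and 11.02% ± 0.546. In HAR123-KO neuroectoderm SOX11 was the most abundant member per length (70.1 ± 0.670 RPKM), ahead of SOX2 (62.9 ± 0.452 RPKM), and SOX12 (50.4 ± 1.78 RPKM) and SOX4 (50.01 ± 0.679 RPKM) overlapped. These shares are ratios of the same counts and were not tested.

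**Figure D2:**
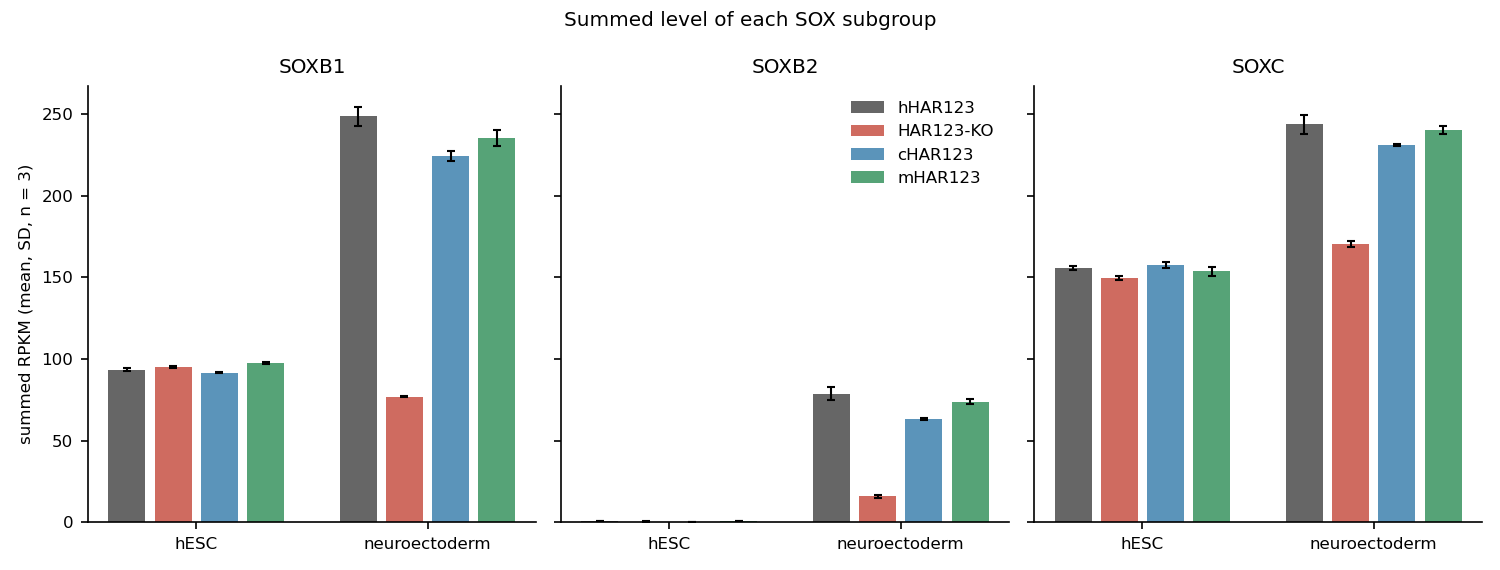
Summed RPKM (vertical axis, from 0) of the SOXB1, SOXB2 and SOXC genes as bars of the mean with the SD of 3 libraries, by stage and genotype. In neuroectoderm the HAR123-KO sum is the lowest of the 4 genotypes in every subgroup, at 77.1 RPKM for SOXB1, 16.01 RPKM for SOXB2 and 171 RPKM for SOXC.

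Other cell-type markers moved with these differences. The 9 neural crest markers FOXD3, SOX10, TFAP2A, TFAP2B, PAX3, PAX7, SNAI2, ETS1 and NGFR summed to 162 to 167 CPM in hHAR123 neuroectoderm and to 2079 to 2090 CPM in HAR123-KO neuroectoderm, and 9 of 9 were called higher, with a median log2 fold change of 4.89. The largest was FOXD3 (6.27 ± 0.06, adjusted p = 1.1e-53, edgeR). The sum was 349 to 362 CPM in cHAR123 and 409 to 414 CPM in mHAR123 neuroectoderm, where 7 of 9 and 8 of 9 were called higher. Over all genes tested, 4.92% were called higher and 4.52% lower in HAR123-KO neuroectoderm. With cHAR123 and mHAR123, 0.978% and 1.03% were called in either direction. These shares also apply to the neuroectoderm counts of the lists below. None of the 9 crest markers was at 0 in hHAR123 neuroectoderm. The part of neural crest cells in the SOX differences was not tested. Markers of surface ectoderm and placode summed to 60.9 to 62.7 CPM in hHAR123 and 47.7 to 51.6 CPM in HAR123-KO with KRT5 and KRT14 at 0 in both, and mesoderm markers to 6.74 to 6.85 and 16.6 to 17.6 CPM.

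Of the further lists of cell markers, the 9 neuroectoderm genes held 4 called lower and 1 called higher in HAR123-KO neuroectoderm, with a median of -0.94. FEZF2, a forebrain transcription factor, was the lowest (-3.60 ± 0.06, adjusted p = 7.9e-44, edgeR), and ZIC1, a factor of the dorsal neural tube, was the one called higher (2.36 ± 0.05, adjusted p = 2.2e-39, edgeR). Of 8 neuron markers 1 was called lower, the proneural gene NEUROG2 (-1.12 ± 0.21, adjusted p = 9.99e-06, edgeR), and the median was -0.45. The sum of these 8 went the other way, at 391 to 402 CPM in hHAR123 and 421 to 429 CPM in HAR123-KO neuroectoderm. Of 9 pluripotency genes 2 were called higher, with L1TD1 the largest (2.77 ± 0.07, adjusted p = 7.4e-37, edgeR) and a median of -0.16. The sum of these 9 was lower, at 1877 to 1976 CPM in hHAR123 and 1747 to 1787 CPM in HAR123-KO neuroectoderm. Of 6 surface ectoderm and placode genes tested, 2 were called higher, GATA3 the largest (3.89 ± 0.47, adjusted p = 7.9e-10, edgeR), and 1 lower, DLX5 (-2.48 ± 0.38, adjusted p = 2.6e-07, edgeR), with a median of 0.15. Both rest on a low group, as the mean of GATA3 in hHAR123 and that of DLX5 in HAR123-KO were below 1 CPM. Of 3 mesoderm genes tested 2 were called higher, PDGFRA the largest (2.13 ± 0.11, adjusted p = 3.7e-23, edgeR), with a median of 1.12, and the 1 endoderm gene tested, CXCR4, was higher past the adjusted p alone (0.20 ± 0.05).

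In hESCs the same comparison gave no called member, where 1.18% of 20832 genes were called. SOX3 was at 23.7, 23.0 and 23.9 CPM in hHAR123 and at 29.4, 28.6 and 28.0 CPM in HAR123-KO, a log2 difference of 0.26 ± 0.05 (adjusted p = 0.000153, edgeR). SOX12 was at 187, 188 and 176 CPM against 160, 156 and 166 CPM (-0.21 ± 0.03, adjusted p = 1.91e-06, edgeR). SOX11 was at 184, 189 and 186 CPM against 171, 168 and 166 CPM (-0.17 ± 0.03, adjusted p = 1.04e-05, edgeR). These 3 passed the adjusted p alone without overlap between groups, 1 of them higher and 2 lower, where 7.06% of all genes were higher and 5.29% lower. SOX3 and SOX12 thus had opposite signs in hESCs and in neuroectoderm. For SOX2 the difference was -0.04, with a 95% interval of -0.09 to 0.02, and for SOX4 it was -0.01, with an interval of -0.06 to 0.04. The intervals of SOX1 (-0.64 to 0.95) and SOX21 (-0.94 to -0.05, adjusted p = 0.114, edgeR) were wide, at 6 to 16 and 22 to 58 reads per library. The median was -0.04 over the members and 0.00 over all genes.

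The replacement genotypes were then compared with hHAR123, which asks whether the chimpanzee or mouse sequence gives the same SOX levels as the human one. The comparisons share the hHAR123 libraries with the one above. As said above, cHAR123 and mHAR123 neuroectoderm are named by their column labels. In cHAR123 neuroectoderm SOX2 was at 483, 492 and 479 CPM, SOX1 at 64.4, 66.1 and 66.6 CPM, and SOX21 at 184, 187 and 184 CPM. All of these lay between the HAR123-KO and the hHAR123 libraries and nearer to the latter. Against hHAR123, SOX21 differed by -0.30 ± 0.03 (adjusted p = 1.53e-09, edgeR), SOX1 by -0.29 ± 0.04 (adjusted p = 4.18e-07, edgeR), SOX2 by -0.15 ± 0.03 (adjusted p = 5.11e-05, edgeR), SOX4 by -0.14 ± 0.03 (adjusted p = 0.000125, edgeR) and SOX11 by -0.11 ± 0.02 (adjusted p = 0.000827, edgeR). SOX12 was higher by 0.28 ± 0.03 (adjusted p = 8.69e-09, edgeR). SOX11 lost the adjusted p without the first cHAR123 library (0.0189). SOX3 was at 34.7, 36.3 and 34.9 CPM (0.18 ± 0.06, adjusted p = 0.0242, edgeR) and passed without the second hHAR123 library (0.00221). By the adjusted p alone, 5 members were lower and 1 higher, where 3.99% and 5.9% of 21275 genes were, and no member was called, where 0.978% of genes were. The median was -0.14 over the members and -0.01 over all genes.

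In mHAR123 neuroectoderm SOX2 was at 525, 504 and 522 CPM, SOX21 at 212, 220 and 217 CPM, and SOX11 at 1002, 1001 and 989 CPM. SOX11 overlapped the hHAR123 libraries, and the others lay just below them. SOX2 differed from hHAR123 by -0.03, with a 95% interval of -0.09 to 0.04, SOX21 by -0.05 (-0.12 to 0.02), SOX4 by -0.06 (-0.13 to -0.002) and SOX11 by 0.00 (-0.06 to 0.06), none past the adjusted p. SOX1, at 60.8, 62.1 and 61.6 CPM, was 1.29-fold lower (-0.36 ± 0.04, adjusted p = 2.33e-08, edgeR), and SOX12, at 176, 179 and 185 CPM, was 1.24-fold higher (0.30 ± 0.04, adjusted p = 2.71e-08, edgeR). SOX3 was at 34.8, 33.2 and 33.8 CPM (0.15 ± 0.06, adjusted p = 0.0666, edgeR) and passed without the second hHAR123 library (0.00993). By the adjusted p alone, 1 member was lower and 1 higher, where 5.21% and 8.8% of 21220 genes were, and none was called, where 1.03% of genes were. The median was -0.03 over the members and -0.01 over all genes.

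**Figure D3:**
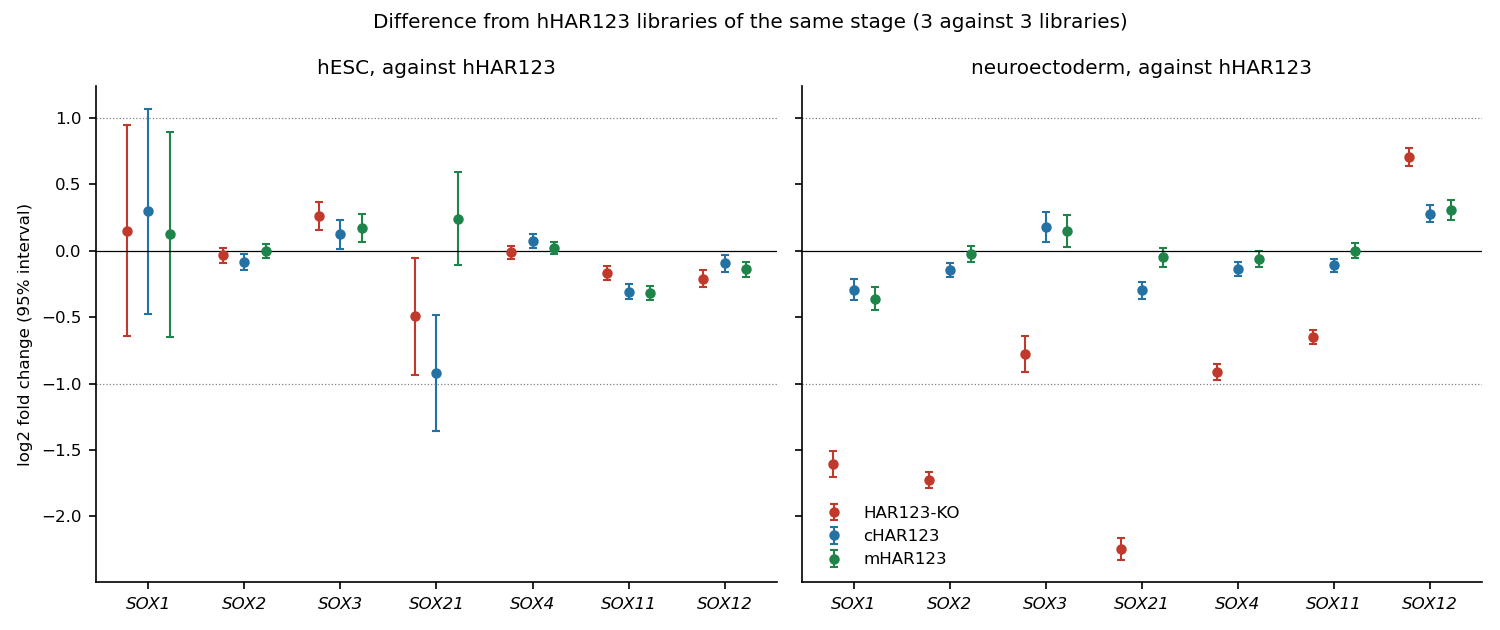
Log2 fold change (vertical axis) of the 7 tested SOX genes in HAR123-KO, cHAR123 and mHAR123 against hHAR123 libraries of the same stage, with 95% intervals and dotted lines at the fold threshold of 1. In hESCs all points lie within the dotted lines, whereas in neuroectoderm the HAR123-KO points for SOX1, SOX2 and SOX21 lie at -1.60, -1.73 and -2.25 and that for SOX12 at 0.70.

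Set against HAR123-KO in neuroectoderm, both replacement genotypes had SOX1, SOX2 and SOX21 called higher, 3 of 7 members, where 3.7% of 21189 genes were called higher with cHAR123 and 3.55% of 21138 with mHAR123. No member was called lower, where 3.91% and 3.78% of genes were. SOX21 was 3.93-fold higher with cHAR123 (1.97 ± 0.03, adjusted p = 2.06e-52, edgeR) and 4.67-fold higher with mHAR123 (2.22 ± 0.04, adjusted p = 7.27e-42, edgeR). SOX2 was 3.04-fold and 3.31-fold higher, and SOX1 2.52-fold and 2.41-fold. SOX3 (0.98 and 0.95), SOX4 (0.80 and 0.88) and SOX11 (0.57 and 0.67) were higher and SOX12 (-0.40 and -0.37) lower past the adjusted p alone, where 18.8% of genes were higher and 20.3% lower with cHAR123 and 17.8% and 18.7% with mHAR123. Without the second HAR123-KO library, SOX3 with cHAR123 reached 1.02 and was called. The medians were 0.98 and 0.95 over the members and 0.00 and -0.01 over all genes.

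Between the replacements themselves, mHAR123 against cHAR123 neuroectoderm, 3 members were higher past the adjusted p alone, where 2.64% of 21108 genes were. These were SOX21 (0.25 ± 0.03, adjusted p = 4.33e-09, edgeR), SOX2 (0.12 ± 0.02, adjusted p = 0.000324, edgeR) and SOX11 (0.11 ± 0.02, adjusted p = 0.000166, edgeR). None was called, where 0.261% of genes were. The others did not pass, with 95% intervals of -0.15 to 0.01 for SOX1, -0.14 to 0.07 for SOX3, 0.02 to 0.12 for SOX4 (adjusted p = 0.0522, and 0.00817 without the third mHAR123 library, edgeR) and -0.03 to 0.08 for SOX12. The median over the members was 0.07.

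In hESCs SOX21 differed between the replacement genotypes, at few reads. It gave 54, 51 and 58 reads in hHAR123, 37, 22 and 41 in HAR123-KO, 26, 22 and 26 in cHAR123 and 73, 51 and 59 in mHAR123, or 0.812 to 0.977 CPM in cHAR123 and 1.79 to 2.12 CPM in mHAR123. Every mHAR123 library was above every cHAR123 library. SOX21 was 1.89-fold lower in cHAR123 than in hHAR123 (-0.92 ± 0.22, adjusted p = 0.00127, edgeR) and 2.24-fold higher in mHAR123 than in cHAR123 (1.16 ± 0.21, adjusted p = 0.000329, edgeR). The latter was the one call among hESCs, 1 of 7 members where 0.0716% of 20950 genes were called higher and 0.0859% lower, and both differences lost the adjusted p under DESeq2 (0.0225 and 0.0331). SOX11 was lower than in hHAR123 with cHAR123 (-0.31 ± 0.03, adjusted p = 1.06e-10, edgeR) and with mHAR123 (-0.32 ± 0.03, adjusted p = 6.37e-13, edgeR), at 152 to 155 CPM in both. SOX12 (-0.14 ± 0.03, adjusted p = 0.000191, edgeR) and SOX3 (0.17 ± 0.05, adjusted p = 0.00949, edgeR) passed the adjusted p with mHAR123, the latter lost under each alternative run but the replicate block. No member was called against hHAR123, where 0.85% of 20935 genes were with cHAR123 and 1.23% of 21139 with mHAR123. By the adjusted p alone these were 2 members lower with cHAR123, where 8.6% of genes were lower, and 2 lower and 1 higher with mHAR123, where 10.2% were lower and 9.02% higher. With cHAR123, SOX2 also passed as lower with DESeq2 (0.00641) and in the joint fit of all libraries (0.00159). SOX12 did so with no filter on low counts (0.00711), in the joint fit (0.00596) and without the third hHAR123 library (0.00579), and SOX4 passed as higher without the first cHAR123 library (0.00603). The medians of the members were -0.09 and 0.02, beside 0.01 over all genes in both.

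Against HAR123-KO hESCs no member was called, where 0.271% of 20659 genes were with cHAR123 and 0.244% of 20926 with mHAR123. SOX11 was lower by 0.13 ± 0.03 on the log2 scale with cHAR123 (adjusted p = 0.00286, edgeR) and by 0.14 ± 0.03 with mHAR123 (adjusted p = 0.000878, edgeR), and SOX12 was higher by 0.13 ± 0.03 with cHAR123 (adjusted p = 0.00745, edgeR). By the adjusted p alone, 4.28% of genes were lower and 3.81% higher with cHAR123 and 3.84% lower with mHAR123. All 3 failed it without the first HAR123-KO library (0.0337, 0.0117 and 0.0626), and SOX12 also with DESeq2 (0.0209) and in the joint fit (0.0118). SOX21 with mHAR123 (0.74 ± 0.21, adjusted p = 0.0154, edgeR) did not pass, but did with no filter (0.00483), in the joint fit (0.00264) and without the first HAR123-KO library (0.0072). SOX4 with cHAR123 (0.09 ± 0.03, adjusted p = 0.0132, edgeR) did not pass either, but did with DESeq2 (0.0065), with no filter (0.0098) and without the third HAR123-KO (0.00878) or the first cHAR123 library (0.00452).

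The stage change was then compared across genotypes, with the cHAR123 and mHAR123 stages joined by their column labels. SOX1, SOX21 and SOX11 were called higher in neuroectoderm than in hESCs in all 4 genotypes, by 5.90 ± 0.14, 5.12 ± 0.10 and 1.71 ± 0.03 log2 units in HAR123-KO cells, 7.09 ± 0.11, 7.51 ± 0.07 and 2.41 ± 0.03 in cHAR123 cells, and 7.20 ± 0.11, 6.60 ± 0.06 and 2.53 ± 0.03 in mHAR123 cells. SOX2 took opposite directions. It was at 204, 203 and 206 CPM in HAR123-KO hESCs and at 159, 157 and 158 CPM in HAR123-KO neuroectoderm, which is lower by log2 -0.57 ± 0.03 (adjusted p = 1.83e-26, edgeR), whereas it was higher by 1.08 ± 0.03 in cHAR123 cells and by 1.12 ± 0.03 in mHAR123 cells. SOX4, at 469, 468 and 473 CPM in HAR123-KO hESCs and 244, 240 and 246 CPM in neuroectoderm, was called lower there (-1.15 ± 0.03, adjusted p = 7.93e-45, edgeR), and SOX3 was 1.86-fold lower (-0.89 ± 0.06, adjusted p = 1.2e-20, edgeR). SOX12 was higher in HAR123-KO neuroectoderm (0.35 ± 0.03, adjusted p = 3.86e-16, edgeR).

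In HAR123-KO cells 3 of 7 members were called higher and 1 lower, where 22% and 19.1% of 21509 genes were, and SOX2, SOX3 and SOX12 passed the adjusted p alone, where 39.8% of genes were higher and 39.4% lower. In cHAR123 and mHAR123 cells 4 of 7 were called higher and none lower, where 21.9% of 22049 and 21.3% of 22173 genes were called higher and 20.8% and 20.7% lower. In these genotypes SOX4 (-0.44 and -0.31), SOX12 (-0.17 and -0.10) and SOX3 (0.23 and 0.15) passed the adjusted p alone, where 39.5% of genes were higher and 39.4% lower in cHAR123 cells and 39.1% and 39.5% in mHAR123 cells. SOX3 lost it under DESeq2 in both (0.0267 and 0.223) and in mHAR123 cells with DESeq2 size factors (0.0274), with no filter (0.0385) and in the joint fit (0.0203) too, and SOX12 lost it in mHAR123 cells without the first or the second neuroectoderm library (0.0501 and 0.0426). For SOX12 the sign again depends on the scaling, with 171 to 181 CPM in hESCs and 179 to 181 CPM in neuroectoderm of cHAR123 cells, and 168 to 174 and 176 to 185 CPM of mHAR123 cells. The medians were 0.35, 1.08 and 1.12 over the members of HAR123-KO, cHAR123 and mHAR123 cells and 0.03, 0.04 and 0.03 over all genes.

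The difference in stage change between HAR123-KO and hHAR123 cells was tested over 12 libraries as an interaction. It was -1.77 ± 0.36 for SOX1 (adjusted p = 5.84e-05, edgeR), -1.69 ± 0.04 for SOX2 (adjusted p = 3.9e-36, edgeR), -1.05 ± 0.08 for SOX3 (adjusted p = 4.7e-15, edgeR) and -1.75 ± 0.21 for SOX21 (adjusted p = 1.49e-09, edgeR). All 4 SOXB genes tested were called lower, where 4.03% of 23113 genes were and 3.84% were called higher, and SOX3 fell within the fold threshold (-0.98) without the second hHAR123 neuroectoderm library. SOX4 (-0.91 ± 0.04) and SOX11 (-0.49 ± 0.04) were lower and SOX12 (0.91 ± 0.05) higher past the adjusted p alone, where 13.9% of genes were lower and 18.6% higher. The median was -1.05 over the members and -0.01 over all genes. For the replacements no member was called, where 0.797% of 23329 genes were with cHAR123 and 0.967% of 23681 with mHAR123. SOX12 (0.38 ± 0.05 and 0.47 ± 0.05) and SOX11 (0.21 ± 0.04 and 0.34 ± 0.04) passed the adjusted p as higher with both, where 5.63% and 9.06% of genes did, and SOX4 (-0.20 ± 0.04) as lower with cHAR123, where 3.07% did. These too join the stages by the column labels. SOX21 with cHAR123 (0.63 ± 0.19, adjusted p = 0.0150, edgeR) did not pass, but did with DESeq2 (0.00966), with its size factors (0.00964) and without the first hHAR123 neuroectoderm library (0.00956). For SOX2 the interval of the difference was -0.13 to 0.03 with cHAR123 and -0.08 to 0.08 with mHAR123.

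**Figure D4:**
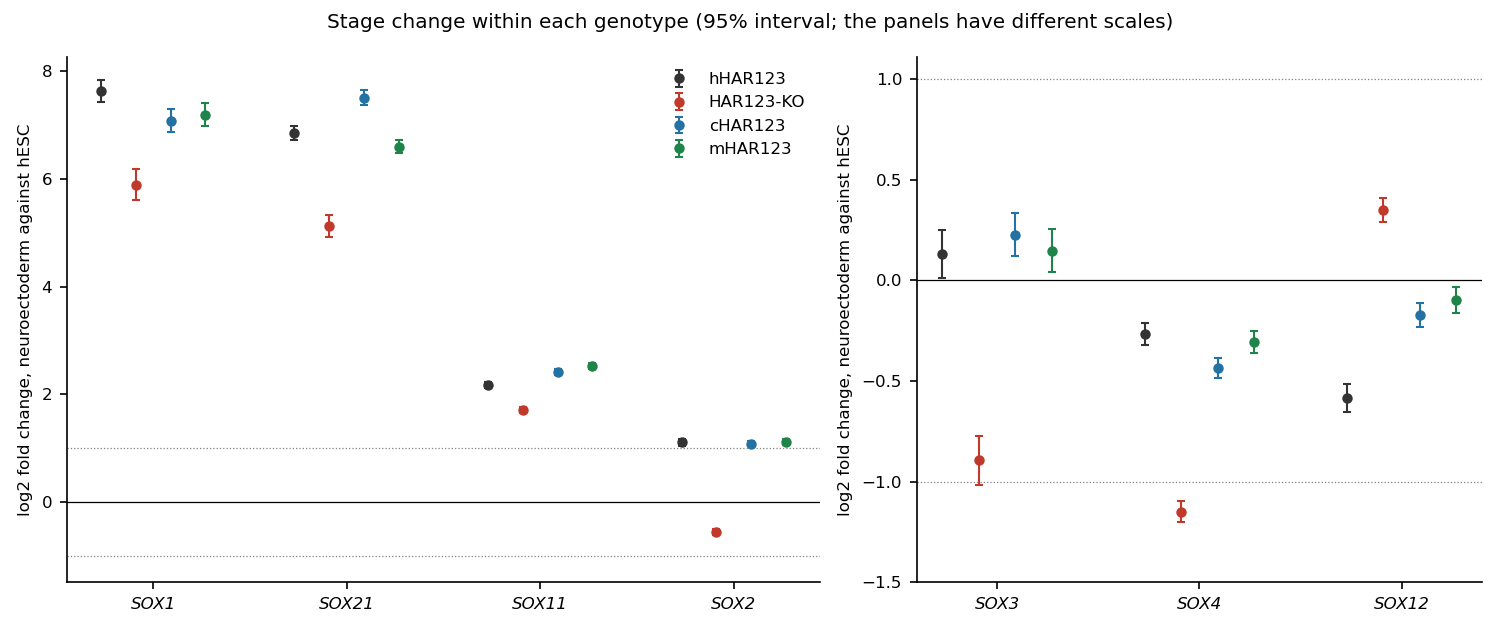
Log2 fold change of neuroectoderm against hESCs (vertical axis, with a different scale in each panel) of 7 SOX genes within each genotype as labelled, with 95% intervals and dotted lines at the fold threshold. SOX2 is at -0.57 in HAR123-KO cells and at 1.08 to 1.12 in the other genotypes, and SOX12 is at 0.35 in HAR123-KO cells and at or below -0.10 in the others.

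Genes of the same family and neighbourhood were described from lists. Of the 11 other SOX genes, 8 were tested in HAR123-KO against hHAR123 neuroectoderm. The 3 SOXE genes were called higher: SOX10, a neural crest factor and also one of the 9 crest markers, at 11.7 to 12.3 CPM in hHAR123 and 323 to 329 CPM in HAR123-KO (4.83 ± 0.05, adjusted p = 5e-55, edgeR), SOX8 (1.81 ± 0.08, adjusted p = 5.1e-26, edgeR) and SOX9 (1.08 ± 0.04, adjusted p = 1.7e-31, edgeR). Of the SOXD genes, SOX6 was called lower (-1.12 ± 0.05, adjusted p = 3.2e-24, edgeR), whereas SOX5 (0.94 ± 0.04) and SOX13 (0.50 ± 0.04) were higher past the adjusted p alone. SOX7 (0.13 ± 0.35) and SOX15 (-0.08 ± 0.35) did not pass, and SOX17, SOX18 and SOX30 were too low to test. The median of the list was 0.72. SOX10 was also called higher with cHAR123 (1.59 ± 0.07, adjusted p = 4.1e-22, edgeR) and mHAR123 (2.23 ± 0.06, adjusted p = 4.5e-27, edgeR), the one call of the list in each. In hESCs SOX15 was called higher than in hHAR123 both in HAR123-KO (1.55 ± 0.17, adjusted p = 2.46e-09, edgeR) and in mHAR123 (1.23 ± 0.17, adjusted p = 2.07e-07, edgeR), and in cHAR123 it was higher past the adjusted p alone (0.91 ± 0.19, adjusted p = 0.000329, edgeR).

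The 3 noncoding RNAs beside the members were all called lower in HAR123-KO neuroectoderm. SOX2-OT was at 20.3 to 21.9 CPM in hHAR123 and 4.91 to 5.19 CPM in HAR123-KO (-2.01 ± 0.09, adjusted p = 1e-25, edgeR). SOX21-AS1 was at 25.4 to 26.1 and 7.72 to 9.26 CPM (-1.52 ± 0.08, adjusted p = 4.1e-23, edgeR), and SOX1-OT at 3.42 to 4.09 and 1.63 to 1.83 CPM (-1.08 ± 0.17, adjusted p = 3.6e-07, edgeR). The groups did not overlap for any of them. With cHAR123 SOX21-AS1 was lower past the adjusted p alone (-0.22 ± 0.06, adjusted p = 0.0083, edgeR), and with mHAR123 none passed. In hESCs SOX21-AS1 was called lower than in hHAR123 both in HAR123-KO (-1.02 ± 0.28, adjusted p = 0.0063, edgeR) and in cHAR123 (-1.42 ± 0.27, adjusted p = 0.000108, edgeR), and in mHAR123 it did not pass (-0.32 ± 0.22, adjusted p = 0.308, edgeR). The mean of SOX21-AS1 was below 1 CPM in HAR123-KO and cHAR123 hESCs. Alternative runs were read for the members only, so these calls were not checked under them.

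Of 7 factors that act with SOX2, 2 were called lower in HAR123-KO neuroectoderm, and the median was -0.51. These were the POU factors POU3F2 (-2.02 ± 0.04, adjusted p = 7.5e-39, edgeR), at 120 to 130 CPM against 29.2 to 30.3 CPM, and POU3F1 (-1.70 ± 0.04, adjusted p = 2.9e-37, edgeR). PAX6 was lower past the adjusted p alone (-0.92 ± 0.03). Of 8 tested neural genes known as SOXB1 targets, 3 were called lower and 1 higher, with a median of -0.35. The largest were RAX, an eye field factor (-4.10 ± 0.19, adjusted p = 5.3e-25, edgeR), and HES5, a Notch effector (-3.00 ± 0.05, adjusted p = 1.6e-45, edgeR). The value for RAX rests on a low group, as its mean in HAR123-KO was below 1 CPM. The intermediate filament gene NES, also one of the neuroectoderm genes above, was lower too (-1.26 ± 0.03, adjusted p = 1.1e-39, edgeR). FABP7, a fatty acid binding protein of radial glia, was called higher (1.51 ± 0.07, adjusted p = 7e-24, edgeR).

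Of 4 tested genes known as joint targets of SOX2 and OCT4, UTF1 was called lower (-1.88 ± 0.42, adjusted p = 0.00016, edgeR), at 0.714 to 0.827 CPM against 0.129 to 0.245 CPM, and the median was -0.56. None of 5 genes known as SOXC targets was called, and the median was -0.13. In that list DCX (0.61 ± 0.05) and MAP2 (0.16 ± 0.03) were higher and TUBB3 (-0.45 ± 0.11) and TEAD2 (-0.13 ± 0.03) lower past the adjusted p alone. In cHAR123 neuroectoderm RAX was the one gene of these 4 lists that was called (-1.16 ± 0.11, adjusted p = 3.2e-11, edgeR), and in mHAR123 neuroectoderm none was.

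**Figure D5:**
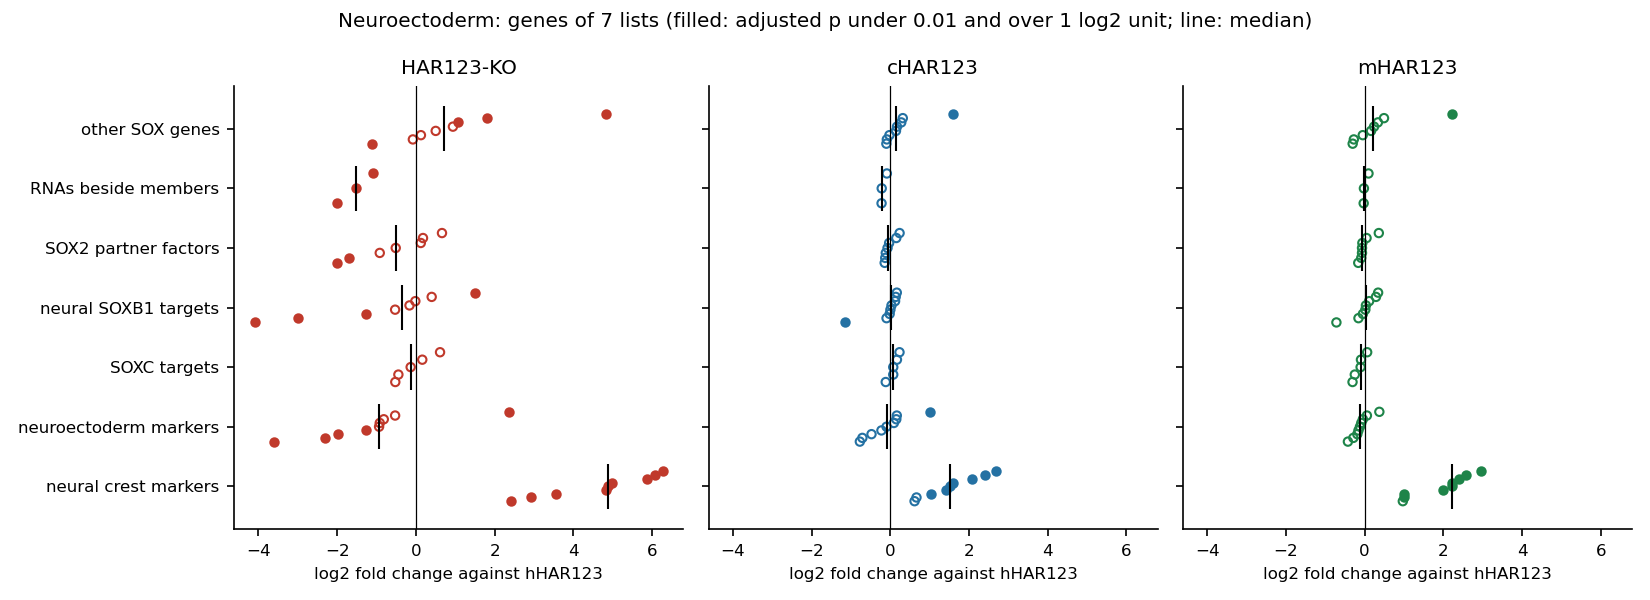
Log2 fold change (horizontal axis) against hHAR123 neuroectoderm of the genes of 7 lists in HAR123-KO, cHAR123 and mHAR123, as filled points where called and open points otherwise, with a line at each list's median. In HAR123-KO the median lies at -1.52 for the RNAs beside the SOX genes and at 4.89 for the neural crest markers, and in cHAR123 and mHAR123 the latter lies at 1.51 and 2.23.

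The genes whose pattern over the 8 conditions was most like that of a member were found among 12488 genes, by the root mean square difference of centred condition means of log2 CPM. The nearest to SOX1 were RBM24 (0.198), BCO1 (0.233) and PGM5 (0.271). The nearest to SOX2 were ARHGEF4 (0.136), CNKSR2 (0.138) and HRH3 (0.145), and to SOX21 SCUBE2 (0.394), BCO1 (0.426) and SOX1 itself (0.447). BCO1 thus stood near both SOX1 and SOX21. For SOX4 the nearest were EFEMP1 (0.0541), RFFL (0.0544) and ADAMTS12 (0.0627), for SOX11 PGAP1 (0.0845), WASF3 (0.0968) and FUT8 (0.102), and for SOX12 RNF187 (0.0512), MAP3K11 (0.0555) and CKAP4 (0.0618). Between members of at least 5 CPM, the smallest difference was that of SOX3 and SOX4 (0.247).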

How the data were processed

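RNA was sequenced from 24 libraries (4 genotypes, 2 stages, 3 libraries each). The authors aligned reads to GRCh38 with STAR (version 2.5.2b in the submitters' processing notes) and counted exonic reads per gene with featureCounts, and the deposited values are raw counts, with no normalization. The strand setting is not given in the sources used here. Of 61554 lines, 3 broken lines of 1 gene, ANK2, were left out. No column of other samples was present (0).

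Counts were tested in R 4.3.3 with edgeR 4.0.16 (filterByExpr, TMM, quasi-likelihood F test, two-sided, Benjamini-Hochberg over all genes tested), each comparison on its own libraries, at the study's thresholds of adjusted p under 0.01 and log2 fold change over 1. The study used DESeq2, run here as an alternative (1.42.0), beside its size factors, no filter, a joint fit of all libraries, a replicate block and leaving out each library. Standard errors were taken as |log2 fold change|/√F, and intervals are at 95%. Intervals and floors (3 counts) cover the spread or counting error of these libraries only. CPM carry no TMM factor. The scripts were tested on simulated data. Figures were drawn in Python 3.11.15 with matplotlib 3.10.9. Replicates differed by more than sampling noise (chi-square per degree of freedom 1.40 to 4.97), so none was counted as a copy.

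The SOX genes and all lists were chosen with earlier results of these data known, so no list is independent evidence. The lists also share genes, so a gene can be counted in several. PAX6, NES and CDH2 recur as neuroectoderm markers, and POU5F1, NANOG and LIN28A as pluripotency markers. TUBB3, DCX, NEUROD1 and MAP2 recur as neuron markers, SOX10 as a crest marker and SOX17 as an endoderm marker. In the lists, the member of largest change called in each direction is named, with every other SOX gene and every RNA beside a member. Further genes of a list were named where called, and those named with values below the call were chosen after their values were seen. The 3 nearest genes are given for members with a mean of at least 5 CPM in neuroectoderm, out of genes with at least 5 CPM over all libraries (prior count 2). Those of SOX3 are not reported here.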

Additional observations from a re-analysis of the deposited data

Results flagged for a closer look

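For the 4 tested SOXB genes the change from hESCs to neuroectoderm differed between HAR123-KO and hHAR123 cells by the interaction test over 12 libraries (edgeR). The differences in log2 fold change were -1.77 for SOX1, -1.69 for SOX2, -1.05 for SOX3 and -1.75 for SOX21. Of these 4, SOX2 passed the adjusted p in opposite directions, higher in neuroectoderm in hHAR123 cells (1.10) and lower in HAR123-KO cells (-0.57). In the same libraries the summed CPM of 9 neural crest markers stood at 2079 to 2090 in HAR123-KO neuroectoderm and 162 to 167 in hHAR123 neuroectoderm, and their part in these differences was not tested. The values of SOX1 and SOX21 rest on 6 to 16 and 22 to 58 reads per hESC library.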

How the results depend on the processing

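The alternatives kept most results on their side of both thresholds. They covered 38 counts of members called, of which 2 moved by over 1.5 times, and 133 log2 fold changes of single members. With DESeq2 the members higher in mHAR123 than in cHAR123 hESCs were 0 (1 with edgeR, SOX21, whose log2 fold change stayed 1.16), and the members lower in HAR123-KO neuroectoderm than in hESCs were 2 with DESeq2 and 2 with no filter on low counts (1 otherwise), since SOX14 was then tested. SOX3 moved across the fold threshold in 2 fits that left out a library: 1.02 in cHAR123 against HAR123-KO neuroectoderm without the second HAR123-KO library, and -0.98 for the stage difference of HAR123-KO without the second hHAR123 neuroectoderm library.

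Signs reversed only for values that did not pass the adjusted p. In mHAR123 against hHAR123, SOX4 in hESCs was -0.0018 in the joint fit of all libraries and SOX11 in neuroectoderm was -0.0015 with DESeq2 size factors. SOX1 in mHAR123 against HAR123-KO hESCs was 0.00838 with DESeq2 and 0.037 with the replicate block. The stage difference of mHAR123 was 0.034 (DESeq2), 0.019 (DESeq2 size factors) and 0.022 (no filter) for SOX2, and 0.036, 0.020, 0.024, 0.00011 (replicate block) and 0.0011 (joint fit) for SOX3. Leaving out 1 library gave ranges that crossed 0. For SOX1 in hESCs they were -0.15 to 0.32 (HAR123-KO against hHAR123), -0.16 to 0.35 (mHAR123 against hHAR123), -0.026 to 0.46 (cHAR123 against HAR123-KO), -0.30 to 0.28 (mHAR123 against HAR123-KO) and -0.45 to 0.043 (mHAR123 against cHAR123). They were -0.014 to 0.0082 for SOX2 in mHAR123 against hHAR123 hESCs, -0.015 to 0.019 for SOX11 in mHAR123 against hHAR123 neuroectoderm, -0.025 to 0.0014 for SOX11 in mHAR123 against cHAR123 hESCs, -0.00069 to 0.045 for SOX12 in mHAR123 against cHAR123 neuroectoderm, and -0.017 to 0.019 for SOX2 and -0.033 to 0.071 for SOX3 in the stage difference of mHAR123. The cause was not tested.

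The replicate numbers did not pair the libraries: in 0 of 16 comparisons was every correlation of same-numbered libraries over 0.1, and in 0 did every library correlate best with its own number. The replicate block changed no member called past both thresholds, with SOX2 at -1.73 and SOX21 at -2.25 in HAR123-KO against hHAR123 neuroectoderm. Under it SOX3 and SOX12 lost the adjusted p between the stages of mHAR123 cells (0.0199 and 0.0230). Depth limits SOX14 everywhere and SOX1 and SOX21 in hESCs, where their counts were 6 to 16 and 22 to 73 reads per library.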
